A study of Drosophila melanogaster with 6 samples.

Results

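The genes described here are 8 genes of the insulin pathway of Drosophila melanogaster, chosen by symbol, with no threshold on their values: the insulin-like peptide genes Ilp2, Ilp3, Ilp5, Ilp6 and Ilp7, the insulin receptor gene InR, and foxo and Thor, which act at the far end of the pathway. They are 8 of the 17490 gene rows of the count table. Of the 8, all passed the filter on low counts.

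Most insulin-like peptides of flies signal through a single insulin receptor, which activates PI3-kinase and Akt. Akt keeps the forkhead factor FOXO out of the nucleus, so that FOXO target genes such as Thor are transcribed more when insulin signalling is low. In the larval brain, Ilp2, Ilp3 and Ilp5 are made by a small group of neurosecretory neurons, the insulin-producing cells. These cells release the peptides into the blood, where they promote growth. In larvae, starvation is known to lower the transcripts of Ilp3 and Ilp5 but not that of Ilp2.

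Polyadenylated RNA was measured by sequencing in brains of 3rd instar larvae. In all of them RNAi against DMAP1, which encodes a chromatin protein of the Tip60/Domino complex, was driven by the neuronal driver elav-Gal4. The labels give 6 samples of this single genotype, without sex or number of brains, and their columns carry the name stems DMAP1RNAi103734 and DMAP1RNAi63666, with 3 libraries each. What the stems mean is not stated, and no control library was analysed here, so the values are levels in DMAP1 RNAi brains and differences between the column-name series, not effects of the knockdown.

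The libraries held 31518485 to 37236953 counts, so that 1 count was 0.0269 to 0.0317 CPM. DMAP1 itself ranged from 17.0 to 19.7 TPM (a level scaled by gene length and library total) in the DMAP1RNAi103734 libraries and from 10.8 to 12.2 TPM in the DMAP1RNAi63666 libraries. The neuronal marker elav was present at 131 to 184 TPM and the glial marker repo at 42.1 to 62.8 TPM. Transcripts of the mitochondrial genome took 6.88% to 7.10% of the counts in the first series and 8.18% to 10.9% in the second. Marker transcripts of the fat body summed to 231 to 731 TPM, and those of the ring gland, which is attached to the brain, to 171 to 318 TPM. Of the fat body sum, apolpp alone was 164 to 275 TPM. Whether these transcripts came from fat body tissue or from the brain itself was not tested. Lsp1beta and Lsp2 were 188 and 32.1 TPM in library 2 of DMAP1RNAi103734, against 21.4 to 48.1 and 0.330 to 2.43 TPM in the other libraries. Apoltp was lowest in that same library, at 6.76 TPM. Each of these brains is a mixture of cells, so fewer cells of a type and less RNA per cell cannot be told apart.

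The levels of the 8 genes spanned a wide range. Ilp2 was the highest at 881 ± 114 TPM (SD, n = 6), followed by Thor at 160 ± 40.4 TPM and Ilp5 at 141 ± 81.9 TPM. InR stood at 38.3 ± 5.60 TPM, foxo at 23.1 ± 2.69 TPM, Ilp6 at 19.5 ± 4.36 TPM, Ilp3 at 15.8 ± 10.8 TPM and Ilp7 at 10.3 ± 1.01 TPM. At 3 steps of this order all 6 libraries were on the same side and the ranges of the neighbours did not overlap. Ilp2 exceeded Thor by 2.49 ± 0.56 in log2 TPM (SD, n = 6), Ilp5 exceeded InR by 1.72 ± 0.89, and InR exceeded foxo by 0.72 ± 0.21. The other neighbours did not differ beyond their spread. Thor was above Ilp5 in 4 of 6 libraries, foxo above Ilp6 in 4, Ilp6 above Ilp3 in 5 and Ilp3 above Ilp7 in 3.

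**Figure D1:**
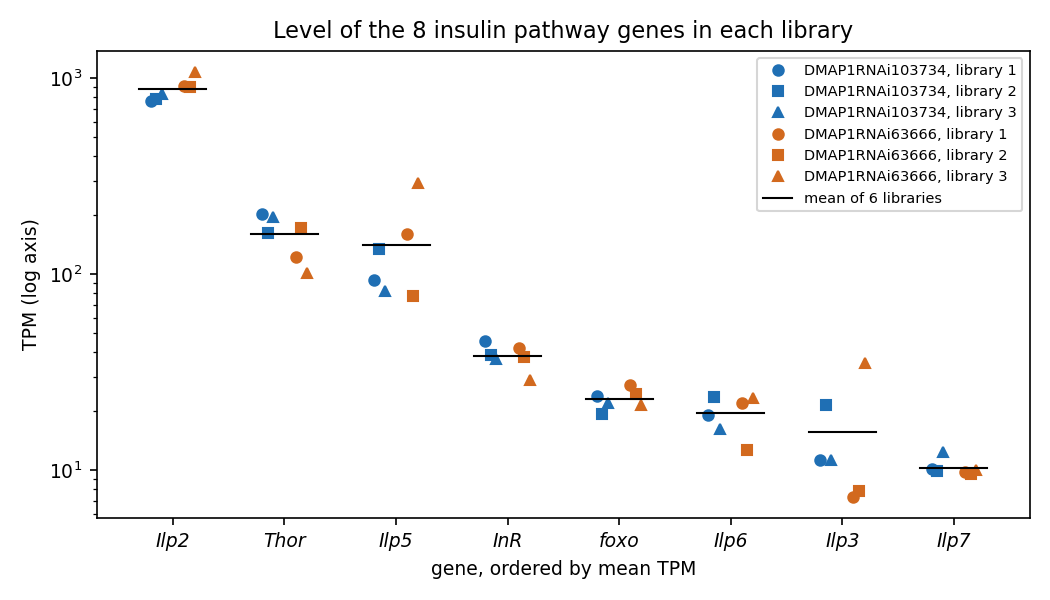
Level of each of the 8 genes in TPM on a log axis, with 1 point per library, colours for the column-name series and a bar at the mean of 6 libraries. Ilp2 lies above all other members in every library, and the points of Ilp3 and Ilp5 are spread more widely than those of Ilp2 and Ilp7.

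Ilp2 (FBgn0036046), the most abundant brain insulin-like peptide transcript here, lies on chromosome 3L from 9799698 to 9800440 on the plus strand of BDGP6. It stands in a cluster of 5 insulin-like peptide genes, Ilp1 to Ilp5, that spans 25464 bases. Its level was 771, 783 and 837 TPM in libraries 1, 2 and 3 of DMAP1RNAi103734, and 915, 902 and 1079 TPM in those of DMAP1RNAi63666. All 3 DMAP1RNAi63666 libraries were above all 3 of the other series. The series means were 965 ± 99.2 TPM (SD, n = 3) in DMAP1RNAi63666 and 797 ± 34.96 TPM in DMAP1RNAi103734. In edgeR's quasi-likelihood test the log2 fold change was 0.32 with a standard error of 0.09 and a 95% interval of 0.10 to 0.53. It did not pass (Benjamini-Hochberg adjusted p = 0.123 over all genes tested; unadjusted p = 0.00864). DESeq2, on the same counts, called it with an adjusted p of 0.0261. Over all settings tried the adjusted p ran from 0.0261 to 0.331.

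Dsk, which encodes the drosulfakinins and is made in the insulin-producing cells and in other brain neurons, was set beside Ilp2. Its level was 203 ± 9.81 TPM (SD, n = 3) in DMAP1RNAi103734 and 250 ± 24.5 TPM in DMAP1RNAi63666. Ilp2 as a percentage of Dsk was 360, 401 and 420 in libraries 1 to 3 of DMAP1RNAi103734, and 331, 367 and 473 in those of DMAP1RNAi63666. On this ratio the series overlapped.

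Ilp3 (FBgn0044050) lies 857 bases from Ilp2 on the minus strand, at 9801298 to 9802120 of chromosome 3L. It was measured at 11.3, 21.6 and 11.3 TPM in DMAP1RNAi103734, from 124, 247 and 125 counts. In DMAP1RNAi63666 it was 7.33, 7.79 and 35.2 TPM, from 72, 88 and 417 counts. Library 3 of DMAP1RNAi63666 was the highest of all and the other libraries of that series were the lowest, so the series overlapped. The highest library exceeded the lowest 4.81-fold. Between the series the log2 fold change was 0.21 with a standard error of 0.58 and a 95% interval of -1.13 to 1.54 (edgeR adjusted p = 0.854). Without library 3 of DMAP1RNAi63666 the log2 fold change was -0.89 (edgeR adjusted p = 0.194), the opposite direction. Over all settings the adjusted p for Ilp3 ran from 0.194 to 0.981.

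Ilp5 (FBgn0044048), at 9823349 to 9823897 on the minus strand of chromosome 3L, is 19085 bases beyond Ilp4, its nearest neighbour in the cluster. Its level was 93.8, 135 and 82.5 TPM in DMAP1RNAi103734 and 161, 77.3 and 294 TPM in DMAP1RNAi63666. The DMAP1RNAi63666 series held both the highest and the lowest library, 3.802-fold apart. The log2 fold change between the series was 0.80 with a standard error of 0.41 and a 95% interval of -0.14 to 1.74 (edgeR adjusted p = 0.259). It was 0.27 without library 3 of DMAP1RNAi63666, and 1.16 without library 2, with edgeR adjusted p-values from 0.0592 to 0.629 over all settings.

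The balance of the Ilp2, Ilp3 and Ilp5 transcripts in these brains therefore varied from library to library. Ilp5 amounted to 12.2%, 17.3% and 9.86% of Ilp2 (TPM) in DMAP1RNAi103734, and to 17.6%, 8.58% and 27.2% in DMAP1RNAi63666. Ilp3 amounted to 1.46%, 2.75% and 1.35% of Ilp2 in the first series, and to 0.802%, 0.864% and 3.26% in the second. Both shares were highest in library 3 of DMAP1RNAi63666. Ilp3 relative to Ilp5 was lowest, at 4.56%, in library 1 of DMAP1RNAi63666, and 10.1% to 15.9% in the other 5 libraries.

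The 6 ring gland markers were read beside Ilp3. The steroid synthesis genes phm, sad and nvd were at 42.0, 38.3 and 18.7 TPM in library 2 of DMAP1RNAi103734 and at 34.7, 35.9 and 24.3 TPM in library 3 of DMAP1RNAi63666, the libraries with the most Ilp3. In the other 4 libraries phm was 12.8 to 21.6 TPM, sad 7.12 to 18.7 TPM and nvd 7.36 to 14.7 TPM. The other 3 markers, dib, Akh and jhamt, did not have their 2 highest values in that pair of libraries. The highest value of dib was in library 3 of DMAP1RNAi63666, at 5.53 TPM, and that of jhamt in library 2 of DMAP1RNAi103734, at 57.5 TPM. Akh was highest in library 2 of DMAP1RNAi63666, at 178 TPM. None of the 6 markers was at 0. Summed over the list, the markers overlapped between the series, at 259 to 318 TPM and 171 to 285 TPM. Their part in the Ilp3 values was not tested.

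**Figure D2:**
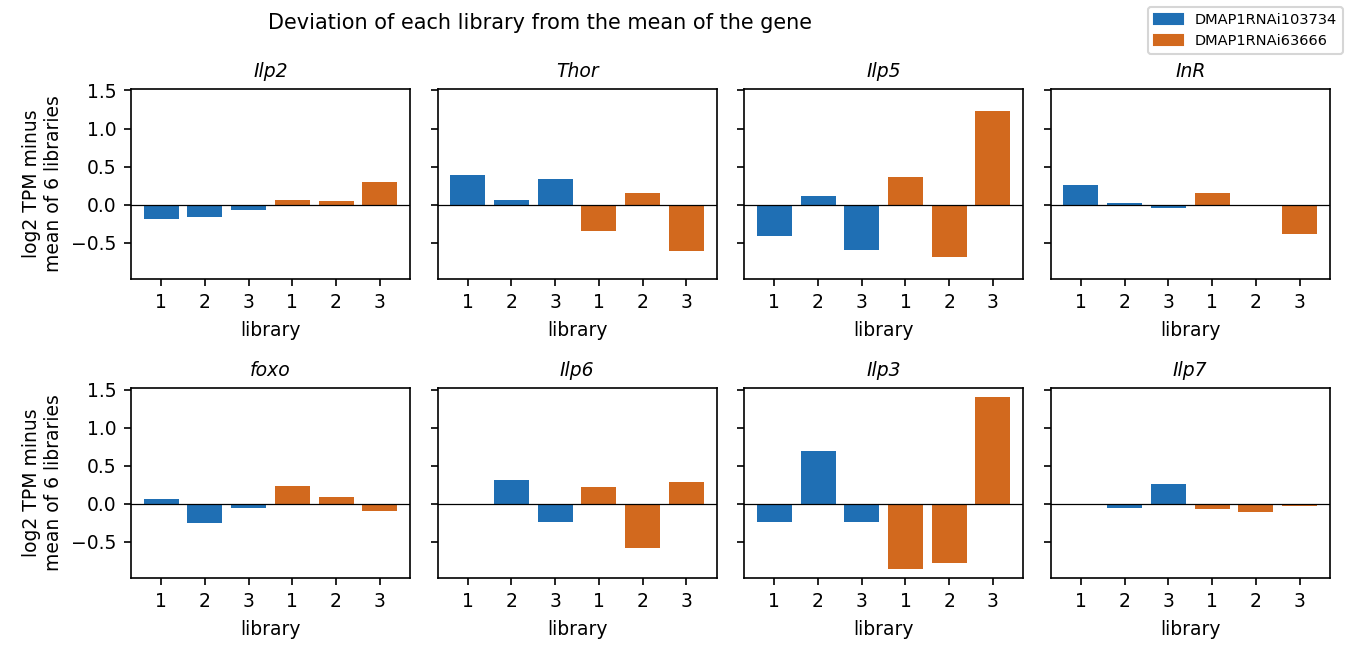
Deviation of each library from the mean of the gene, in log2 TPM, with 1 panel per gene and 1 bar per library, coloured by column-name series. Ilp3 reaches 1.41 and Ilp5 1.23 above the mean in library 3 of DMAP1RNAi63666, while Thor in that library is at -0.61.

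Ilp6 (FBgn0044047), which encodes an insulin-like growth factor type peptide made mainly by fat body and glia, lies on the X chromosome at 2331493 to 2334658 on the minus strand. It stood at 19.1, 23.6 and 16.2 TPM in DMAP1RNAi103734 and at 22.1, 12.7 and 23.2 TPM in DMAP1RNAi63666. The series overlapped throughout, with a log2 fold change of 0.02, a standard error of 0.23 and a 95% interval of -0.52 to 0.56 (edgeR adjusted p = 0.966). The 3 libraries above 20 TPM held summed fat body marker levels of 731, 398 and 351 TPM, against 231 to 242 TPM in the other 3. Much of each sum was apolpp, at 228, 248 and 275 TPM against 164 to 203 TPM. Lsp1alpha, Lsp1gamma and Fbp2 split the libraries as apolpp did, while Lsp1beta, Lsp2, Fbp1 and Apoltp did not. Summed glial marker levels in the 3 libraries above 20 TPM of Ilp6 were 3775, 4591 and 4427 TPM, against 3941 to 3993 TPM. No fat body marker was at 0, Fbp1 being the lowest at 0.0576 to 1.44 TPM. The part of these tissues in the Ilp6 level was not tested.

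Ilp7 (FBgn0044046), a relaxin-like peptide gene known from neurons of the ventral nerve cord, lies on the X chromosome at 3667621 to 3668845 on the plus strand. Its level was 10.2, 9.93 and 12.3 TPM in DMAP1RNAi103734 and 9.81, 9.55 and 10.03 TPM in DMAP1RNAi63666, from 134 to 189 counts. Apart from library 3 of DMAP1RNAi103734, all libraries lay within 1 TPM of each other, and the series overlapped. The log2 fold change was -0.10 with a standard error of 0.17 and a 95% interval of -0.48 to 0.28 (edgeR adjusted p = 0.739). Its exons shared 9 bases with Parg on the opposite strand, and the counting was by strand.

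The other 3 insulin-like and relaxin-like peptide genes were low. Ilp1, the first gene of the cluster on chromosome 3L, ranged from 1.90 to 3.23 TPM in DMAP1RNAi103734, from 13 to 22 counts. In DMAP1RNAi63666 it ranged from 1.29 to 1.81 TPM, from 9 to 13 counts. The series did not overlap (edgeR adjusted p = 0.319), which was so for 32.0% of all genes. The exact intervals for counting error did overlap. They were 1.01 to 3.25 TPM in library 3 of DMAP1RNAi103734 and 0.903 to 3.24 TPM in library 1 of DMAP1RNAi63666. Ilp4, known from the embryonic midgut and mesoderm, had 0 counts in all 6 libraries, which allows a level of up to 0.0145 CPM (3 counts over all 6 libraries, counting error only). Ilp8, a growth-coordinating peptide of imaginal discs, varied from 1.73 to 10.2 TPM.

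InR (FBgn0013984), the insulin receptor, lies on chromosome 3R at 21570248 to 21619321 on the minus strand. It was measured at 45.4, 38.7 and 36.9 TPM in DMAP1RNAi103734 and at 42.3, 37.7 and 28.9 TPM in DMAP1RNAi63666. The lowest library was library 3 of DMAP1RNAi63666, the highest in Ilp2, Ilp3 and Ilp5, and the series overlapped. The log2 fold change was -0.10 with a standard error of 0.16 and a 95% interval of -0.48 to 0.27 (edgeR adjusted p = 0.727).

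The forkhead gene foxo (FBgn0038197), on chromosome 3R at 14056945 to 14087978 on the plus strand, stood at 24.0, 19.4 and 22.1 TPM in DMAP1RNAi103734 and at 27.1, 24.5 and 21.5 TPM in DMAP1RNAi63666. It varied 1.40-fold in all, as did Ilp2, and the series overlapped. The log2 fold change was 0.21 with a standard error of 0.13 and a 95% interval of -0.09 to 0.50 (edgeR adjusted p = 0.344). It was 0.08 without library 1 of DMAP1RNAi63666, 0.31 without library 3 and 0.13 without library 2 of DMAP1RNAi103734, with edgeR adjusted p-values from 0.191 to 0.734 over all settings. FOXO is controlled mainly through its place in the cell, which transcript levels do not measure.

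Thor (FBgn0261560), the fly 4E-BP, binds eIF4E and holds back cap-dependent translation, and it is a target gene of FOXO. It lies on chromosome 2L at 3478434 to 3479612 on the plus strand. Its level was 203, 163 and 197 TPM in DMAP1RNAi103734 and 123, 173 and 102 TPM in DMAP1RNAi63666. Libraries 1 and 3 of DMAP1RNAi63666 were the lowest of the 6, but library 2 lay inside the range of the other series. The series means were 133 ± 36.6 TPM (SD, n = 3) in DMAP1RNAi63666 and 188 ± 21.9 TPM in DMAP1RNAi103734. The log2 fold change was -0.45 with a standard error of 0.19 and a 95% interval of -0.89 to -0.01 and did not pass (edgeR adjusted p = 0.194; unadjusted p = 0.0454). Over all settings the adjusted p ran from 0.0539 to 0.413, and the log2 fold change was -0.27 without library 3 of DMAP1RNAi63666 and -0.69 without library 2 (edgeR adjusted p = 0.0539).

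**Figure D3:**
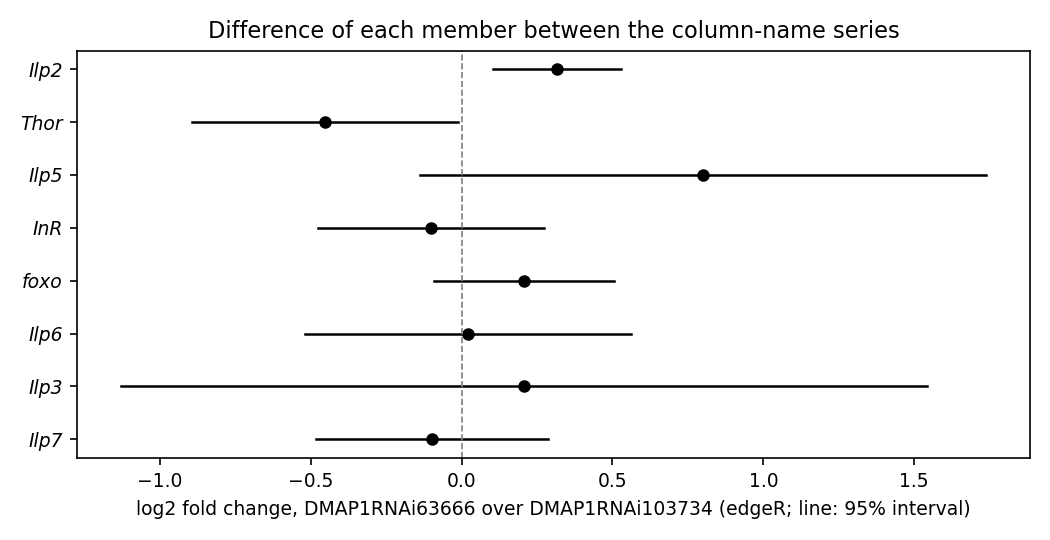
Log2 fold change of each gene, DMAP1RNAi63666 over DMAP1RNAi103734, as a point with a 95% interval derived from the edgeR test. The intervals of Ilp2 (0.10 to 0.53) and Thor (-0.89 to -0.01) do not include 0, and those of Ilp3 and Ilp5 are the widest.

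The counts of the 8 genes called between the column-name series lay near or under the share over all genes, so they are no result particular to these genes. With edgeR's adjusted p under 0.05, 0 of 8 were called, while 1.55% of 10211 genes were called. At an unadjusted p under 0.05, 2 of 8 passed, Ilp2 and Thor, against 24.6% of all genes tested. DESeq2 called 1 of 8, Ilp2, against 8.75% of 10640 genes. The TPM ranges of the series did not overlap for 1 of 8, again Ilp2, against 32.0% of genes. The median log2 fold change of the 8 was 0.11, and that of all genes tested was 0.0006. The labels describe neither the series nor a batch, so the stem and a batch cannot be told apart. No label names separate animals or pools, so each p-value reflects the spread among these libraries alone, and that spread may be technical.

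The members differed more in how far libraries of the same series scattered. The SD of log2 CPM within the series was 0.94 for Ilp3 and 0.72 for Ilp5, above the 95th percentile of all 10211 genes, 0.63. Their percentiles were 98.3 and 96.4. For Ilp2, made in the same cells, the SD was 0.09, the 15.7th percentile, below the median of 0.17. Ilp7 had an SD of 0.13, foxo 0.19, InR 0.26, Thor 0.31 and Ilp6 0.39, with percentiles from 31.9 to 86.5. Outside the 8 genes, Ilp8 was at the 98.9th percentile with an SD of 1.19. Ilp3 had 72 to 417 counts in a library, Ilp5 556 to 2215 and Ilp2 7575 to 11396.

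**Figure D4:**
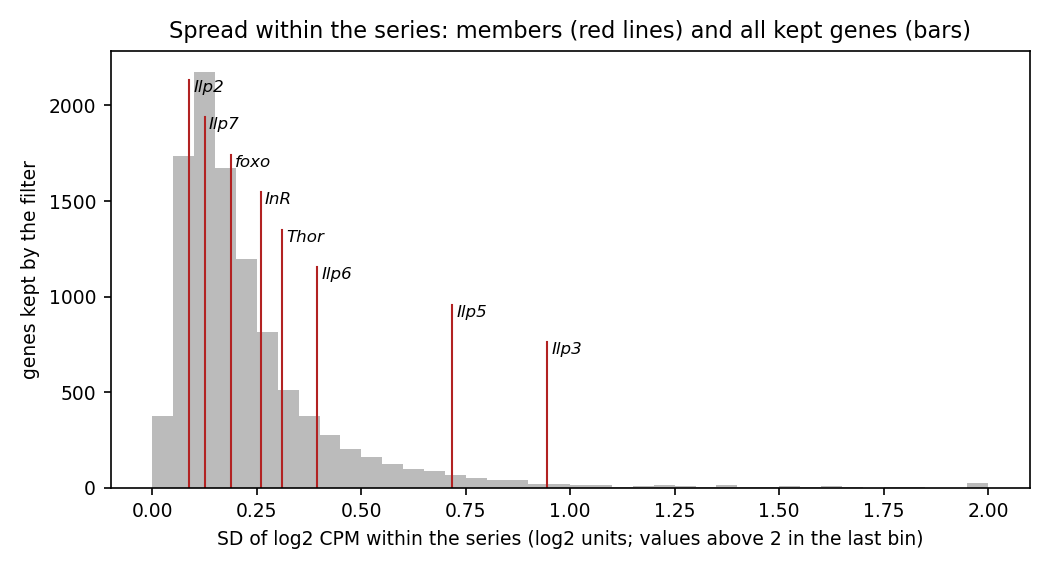
Distribution of the SD of log2 CPM within the column-name series over the 10211 genes tested (grey bars), with the 8 genes as red lines. Ilp2 and Ilp7 fall below the median of all genes (0.17), and Ilp3 and Ilp5 lie in the upper tail.

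Across the 6 libraries, Ilp5 and Thor ran opposite ways. The 3 libraries with the most Ilp5, 135 to 294 TPM, were the 3 with the least Thor, 102 to 163 TPM. Pearson's r of log2 TPM was -0.93 (n = 6, exact permutation p = 0.0111, two-sided) and Spearman's rho was -0.77 (exact permutation p = 0.103). Without the 2 libraries farthest from the median of Ilp5, r was -0.93, and for deviations from the series means it was -0.98. This was 1 of 28 pairs computed among the 8 genes, and the Benjamini-Hochberg adjusted exact permutation p was 0.311 for r and 0.719 for rho. None of the 28 passed after adjustment, and 2 had an unadjusted exact p under 0.05 for r.

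The second such pair was Ilp2 and Thor, with r = -0.85 (n = 6, exact permutation p = 0.0264, adjusted p = 0.350) and rho = -0.83 (exact permutation p = 0.0583, adjusted p = 0.544). The r was -0.46 without the 2 libraries farthest from the median of Ilp2, and was -0.65 for deviations from the series means. Leaving out 2 of 6 libraries leaves too few to say, for this pair or any other, whether r rests on them. For Ilp5 and Ilp6, r was 0.79 (n = 6, exact permutation p = 0.0514, adjusted p = 0.350), rho 0.83 (exact permutation p = 0.0583), r without the 2 farthest libraries 0.90 and r within the series 0.92. The peptide pair Ilp3 and Ilp5 gave r = 0.70 (n = 6, exact permutation p = 0.117) and rho = 0.37 (exact permutation p = 0.497), and r was 0.84 for deviations from the series means but -0.51 without the 2 farthest libraries. For Ilp3 and foxo, rho was -0.94 (n = 6, exact permutation p = 0.0167, adjusted p = 0.467) and r was -0.78 (exact permutation p = 0.0556, adjusted p = 0.350). The libraries with high Ilp5 and low Thor were also those with the higher summed fat body markers given beside Ilp6, though not with more of every marker. The part of these markers was not tested.

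Among the other 10210 genes tested, those most like each peptide gene of the insulin-producing cells over the 6 libraries were found by Pearson correlation of log2 CPM. For Ilp2 they were CG7857 (r = 0.99), the vesicle SNARE gene Vamp7 (r = 0.99) and the mitochondrial ribosomal protein gene mRpL37 (r = 0.99). For Ilp3 they were the kinesin heavy chain gene Khc, snoRNA:Psi28S-1060 and the N-myristoyl transferase gene Nmt, and for Ilp5 the acid phosphatase gene Acph-1, CG6333 and l(2)k01209, with r = 0.997 for Khc, r = 0.998 for Acph-1 and 0.99 for the rest. An r above 0.9 was reached by 243 genes with Ilp2, 166 with Ilp3 and 209 with Ilp5. Khc ranged only from 98.2 to 130 TPM where Ilp3 ranged from 7.33 to 35.2 TPM, and CG6333 was low, at 0.842 to 2.35 TPM. These genes were picked by r from 10210 over only 6 libraries. Such a search returns a high r in any case, so the names are a description, and no link was tested.

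The rest of the pathway was read from 9 lists holding 95 genes, of which 94 were tested. EdgeR called 0 of the 94 between the column-name series after adjustment, and 28 had an unadjusted p under 0.05, 17 higher and 11 lower in DMAP1RNAi63666. That is 29.8% of them, beside 24.6% of all genes tested. DESeq2 called 9 of the 94, 8 higher and 1 lower, a share close to the 8.75% it called over all genes. Their median log2 fold change was 0.06.

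Among the 5 genes that bind or receive secreted peptides, the median log2 fold change was 0.30. Of these, 3 had an unadjusted edgeR p under 0.05, all higher in DMAP1RNAi63666, and DESeq2 called 2, ImpL2 and Sdr. Over all genes tested the shares were 24.6% and 8.75%. ImpL2, a secreted protein that binds insulin-like peptides and dampens their signal, was at 90.1 ± 13.4 TPM (SD, n = 3) in DMAP1RNAi63666 and 65.9 ± 4.98 TPM in DMAP1RNAi103734 (edgeR log2 fold change 0.50, adjusted p = 0.109). Sdr, a secreted decoy of the insulin receptor, was at 59.9 ± 9.67 and 45.1 ± 3.22 TPM (log2 fold change 0.45, edgeR adjusted p = 0.117). For both, every DMAP1RNAi63666 library was above every library of the other series, which was so, in either direction, for 32.0% of all genes.

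In the PI3-kinase branch, 7 of 13 genes had an unadjusted edgeR p under 0.05, 4 higher and 3 lower, beside 24.6% of all genes. The 2 most abundant were Tif-IA, a polymerase I initiation factor, at 211 ± 32.7 TPM in DMAP1RNAi63666 and 165 ± 7.63 TPM in the other series (log2 fold change 0.40, edgeR adjusted p = 0.138), and the adaptor dock (log2 fold change 0.14, edgeR adjusted p = 0.326). In the TOR branch, 4 of 16 had an unadjusted p under 0.05, 1 higher and 3 lower, beside the same 24.6%. DESeq2, which called 8.75% of all genes, called only PRAS40 in this branch, a TOR complex subunit, lower at 81.9 against 106 TPM. The 2 most abundant genes there, the cap-binding protein eIF4E1, the partner of Thor, and the GTPase Rheb, had log2 fold changes of 0.06 and 0.12 (edgeR adjusted p = 0.684 and 0.373).

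In the RAS branch, 3 of 7 genes had an unadjusted edgeR p under 0.05, 2 higher and 1 lower, and DESeq2 called drk. The shares over all genes were 24.6% and 8.75%. The adaptor drk was at 186 ± 20.1 TPM in DMAP1RNAi63666 and 146 ± 5.99 TPM in the other series (edgeR log2 fold change 0.39, adjusted p = 0.115), and Ras85D had a log2 fold change of 0.13 (edgeR adjusted p = 0.417). Of 9 partners and target genes of FOXO, 5 had an unadjusted p under 0.05, 4 higher and 1 lower, beside the same 24.6%. DESeq2 called 3 of them, all higher, beside the same 8.75%: 14-3-3zeta, Myc and the lipase gene Lip4. The 14-3-3 proteins bind phosphorylated FOXO. 14-3-3zeta was at 2314 ± 310 TPM in DMAP1RNAi63666 and 1726 ± 138 TPM in DMAP1RNAi103734 (edgeR log2 fold change 0.47, adjusted p = 0.134), and 14-3-3epsilon had a log2 fold change of 0.16 (edgeR adjusted p = 0.444). The growth regulator Myc had a log2 fold change of 0.45 (edgeR adjusted p = 0.0813).

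Of 22 genes that regulate or mark the insulin-producing cells, 3 had an unadjusted edgeR p under 0.05, 1 higher and 2 lower, and DESeq2 called 0. For this list and the next, the shares over all genes were 24.6% and 8.75%. The most abundant of the 22 were sun, known as a peptide signal from the fat body to the insulin-producing cells, with a log2 fold change of -0.24 (edgeR adjusted p = 0.174), and Dsk, with 0.35 (edgeR adjusted p = 0.136). Peptide processing and dense core vesicles had 1 of 10 genes with an unadjusted p under 0.05, lower, and 0 DESeq2 calls. Its 2 most abundant genes were the vesicle protein gene IA-2 (log2 fold change 0.09, edgeR adjusted p = 0.760) and the amidating enzyme gene Pal2 (log2 fold change -0.07, edgeR adjusted p = 0.746).

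Among 11 hormones that relay nutrient state, 2 had an unadjusted edgeR p under 0.05, both higher, and DESeq2 called 1, Dh44. The shares over all genes were 24.6% and 8.75%. The diuretic hormone gene Dh44, whose peptide marks nutrient-sensing brain neurons, was at 199, 161 and 193 TPM in DMAP1RNAi103734 and at 267, 269 and 248 TPM in DMAP1RNAi63666. The series did not overlap. The same held for 32.0% of all genes. Its log2 fold change was 0.55 with a standard error of 0.11, the lowest adjusted p of the 94 genes (edgeR adjusted p = 0.0515). The short neuropeptide F gene sNPF had a log2 fold change of 0.44 (edgeR adjusted p = 0.173).

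**Figure D5:**
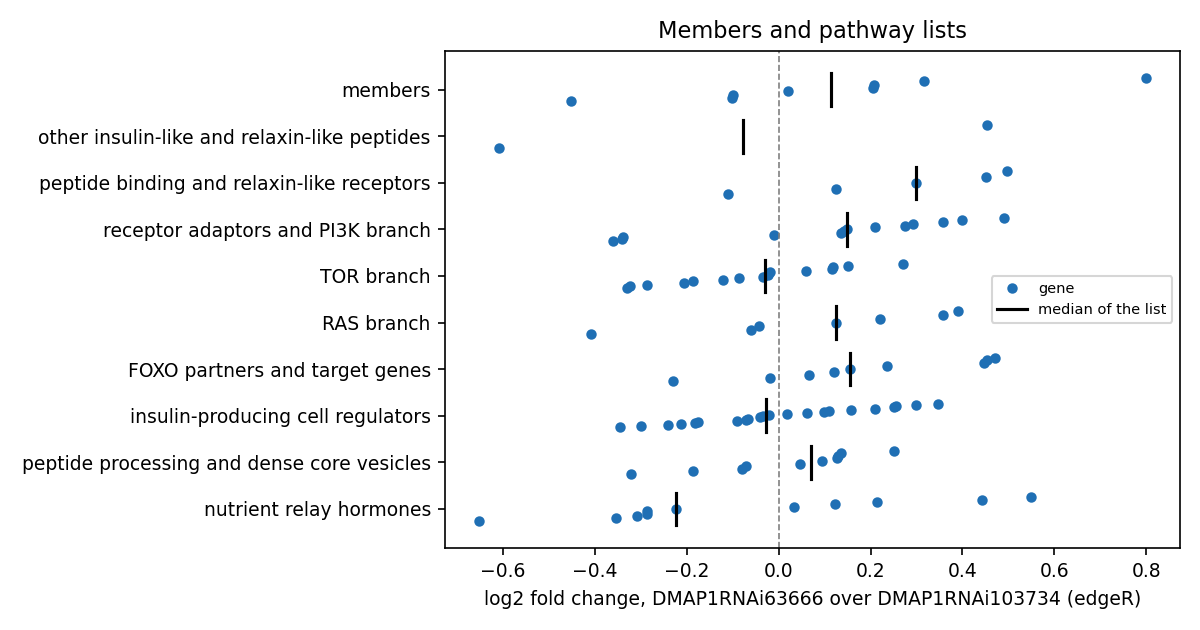
Log2 fold change of every tested gene of the 8 members and the 9 pathway lists, DMAP1RNAi63666 over DMAP1RNAi103734, with 1 point per gene and a bar at the median of each list. The medians run from -0.22 for the nutrient relay hormones to 0.30 for the peptide binding and relaxin-like receptors.

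Markers of neurons and glia were also read between the series, since they could move with these values. The 5 neuronal markers had a median log2 fold change of 0.27 and the 7 glial markers 0.21. EdgeR called 0 of either list, with an unadjusted p under 0.05 for 2 neuronal and 2 glial markers, all higher in DMAP1RNAi63666. Of all genes tested, 24.6% had an unadjusted edgeR p under 0.05, and DESeq2 called 8.75%. DESeq2 called 0 neuronal markers and 1 glial marker, alrm. Their summed levels overlapped between the series for both lists, at 1138 to 1507 and 1433 to 1942 TPM for neurons and 3775 to 3993 and 3941 to 4591 TPM for glia. None of these markers was at 0. Their part in the differences of Ilp2, ImpL2, Sdr and Dh44 was not tested.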

How the data were processed

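Polyadenylated RNA of brain samples was made into TruSeq libraries and sequenced, following the labels' protocols. Deposited values are counts of read pairs per gene, made by the authors with featureCounts 1.6.5 on BDGP6 with strand-specific, paired-end counting, per the file headers. For the aligner, a version was not given in the sources used here. DESeq2 is listed in the submitters' processing notes without its role. Column names give the group of a library but cannot tie it to 1 labelled sample. A further 3 columns of per-sample values match no label and were not analysed here.

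The 8 genes and the gene lists were chosen with earlier results of these data known. Of the 17490 rows, 17216 were named by gene identifier, 224, among them InR, by exon overlap of at least 0.8, and 50 kept no name. TPM and CPM were computed from the counts and gene lengths. The column-name series, the only division of the libraries, were compared over 10211 genes with the quasi-likelihood test of edgeR 4.0.16 (R 4.3.3), TMM factors of 0.915 to 1.039, a minimum count of 10 and Benjamini-Hochberg adjustment at 0.05, tested first on simulated counts. DESeq2 1.42.0, DESeq2 size factors, unscaled library totals, no filter, no mitochondrial counts, a block on the library number and leaving out each library were the alternatives. Standard errors of log2 fold changes are not edgeR output but were derived from the F statistic of its test. The 95% intervals of the fold changes were built from them with the t distribution. Correlations used exact permutation over the 6 libraries. Genes named are the 8, the 2 of highest mean TPM in each of the 9 pathway lists, and the 3 most like Ilp2, Ilp3 and Ilp5. Ilp4, PRAS40, Myc, Lip4 and the marker genes named singly were chosen after their values were seen. Intervals on single values are exact Clopper-Pearson at 95% and, like the bound of 3 counts for a gene at 0, cover counting error only. The other genes of the lists are not reported singly here.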

Additional observations from a re-analysis of the deposited data

Results flagged for a closer look

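In library 3 of DMAP1RNAi103734, Ilp7 stood at 12.3 TPM (12.314 before rounding), apart from the other 5 libraries at 9.55 to 10.2 TPM. The gap to the next library was 0.77 of the whole range, above the 95% critical value of Dixon's test for 6 samples. The value came from 189 counts, with an exact 95% interval of 10.6 to 14.2 TPM, which overlaps the interval of the next library, 8.65 to 11.9 TPM. It was 1 of 8 genes examined in this way, and chance passes that critical value in about 1 of 20 groups.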

How the results depend on the processing

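The 158 genes called between the column-name series became 931 with DESeq2 and 278 with a replicate block on the library number, and ran from 69 to 457 when each library was left out, the highest count coming without library 2 of DMAP1RNAi63666 and 75, 83 and 69 without libraries 1, 2 and 3 of DMAP1RNAi103734; the other settings gave 125 to 215. The cause was not tested. The block pairs libraries that share only a number, whose deviations correlated at 0.24, -0.21 and -0.26 for numbers 1, 2 and 3.

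Of the 8 genes, 1 was called with DESeq2 (Ilp2) and 0 under every other setting. Of their alternative log2 fold changes, 85 kept their direction and side of the threshold, 10 changed sign and 1, Ilp2 with DESeq2, passed. Ilp3 was -0.10 and Ilp6 -0.0015 with the replicate block, and Ilp6 was -0.058 without scaling factors, a setting that shifted the median of all genes by -0.07. Leaving out each library gave -0.89 to 0.60 for Ilp3, -0.13 to 0.25 for Ilp6, -0.15 to 0.0057 for Ilp7 and -0.27 to 0.061 for InR. The order by level kept 4 of 8 places in CPM, which ignores gene length, and 8 under the other settings. Depth limits Ilp3 and Ilp7 most, at 72 and 134 counts in their lowest libraries.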
